A study of Mus musculus with 4 samples.

Results

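The inositol synthesis and uptake genes are the enzymes that make myo-inositol or release it from inositol phosphates, the enzyme that builds it into phospholipid, and its main sodium-coupled transporter. Of 7 such genes chosen by name (Isyna1, Impa1, Impa2, Inpp1, Minpp1, Cdipt and Slc5a3), 5 had at least 1 probe set that the platform annotation pairs with that symbol alone, out of 19938 genes represented in the same way. They had 6 probe sets among 35556, because Minpp1 had a second. Isyna1 and Impa2 were not analysed here. The rule selects them by symbol and not by a measured value, although the list was drawn up with earlier results of these data known. Where a gene had several probe sets, the brightest over all arrays was taken as its main one.

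The data are 4 Affymetrix arrays of total RNA from E14 cells, a mouse embryonic stem cell line. Of these, 2 came from cells given 0.5 mM valproic acid (VPA), an inhibitor of histone deacetylases, for 4 h, and 2 from untreated cells collected alongside. All cells grew with serum and leukemia inhibitory factor on primary embryonic fibroblasts stopped from dividing with mitomycin, so each RNA could hold feeder RNA. The labels call the arrays replicates without saying that they came from separate cultures, so a p-value here reflects how far these arrays differ among themselves, and that may be technical spread.

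Myo-inositol is the head group of phosphatidylinositol and of the phosphoinositides, the membrane lipids from which phospholipase C releases inositol trisphosphate. Cells obtain it by making it from glucose 6-phosphate, by recycling inositol phosphates, and by import. Synthesis starts with Isyna1, the inositol 3-phosphate synthase, and ends with the inositol monophosphatases Impa1 and Impa2, which lithium inhibits. VPA lowers cellular inositol in yeast and has been reported to do so in mammalian cells, which makes the transcripts of these genes of interest in cells exposed to it. Inositol itself was not measured.

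After 4 h, the transcripts of Cdipt, Slc5a3 and Impa1 had higher signals on both VPA arrays than on either untreated array, by 1.26-fold, 1.29-fold and 1.24-fold between group means. Those of Inpp1 and Minpp1 overlapped between the groups. None of the 5 genes passed the test across all probe sets, in which limma with Benjamini-Hochberg adjustment called 0 of 35556 probe sets (0%). All values below are log2 signals on the array unless a fold is named, and each difference is VPA minus untreated.

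Impa1 removes the last phosphate from inositol monophosphate and so yields free inositol in both synthesis and recycling. Its probe set 10497285 read 6.37 and 6.52 in VPA cells, against 6.20 and 6.07 in untreated cells. Both VPA values lay above both untreated ones, with 0.17 between the nearest pair, which was close to the 0.15 between the VPA arrays and the 0.14 between the untreated arrays. The group means were 6.44 ± 0.11 in VPA cells and 6.13 ± 0.096 in untreated cells (SD, n = 2 each). The difference was 0.31 ± 0.12 (SE), with a 95% interval from -0.0049 to 0.63, an unadjusted p of 0.052 and an adjusted p of 0.545 in limma.

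Inpp1, the inositol polyphosphate 1-phosphatase, is another lithium-sensitive enzyme and turns inositol bisphosphates into the monophosphates that Impa1 uses. Its probe set 10354521 read 3.36 and 3.19 in VPA cells, against 3.32 and 3.28 in untreated cells. These values lay below the median of every array, which was between 3.80 and 3.82. Without detection calls it cannot be said whether the transcript was present. The VPA arrays lay on either side of the untreated ones. The difference was -0.022 ± 0.12 (SE), and it was 0.061 without VPA replicate 2. Its 95% interval ran from -0.32 to 0.28 (adjusted p = 0.972 in limma). At so low a signal the interval does not bound a change of the transcript.

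Minpp1, the multiple inositol polyphosphate phosphatase of the endoplasmic reticulum, strips phosphates from highly phosphorylated inositols. Its brighter probe set, 10515156, read 6.89 and 7.15 in VPA cells, against 6.97 and 6.84 in untreated cells. VPA replicate 1 lay between the untreated arrays and VPA replicate 2 above them. The difference was 0.12 ± 0.14 (SE), with a 95% interval from -0.25 to 0.48 and an adjusted p of 0.841 in limma, and it was 0.25 without VPA replicate 1 and -0.017 without VPA replicate 2. The dimmer probe set, 10462504, read 6.38 and 6.47 in VPA cells, against 6.50 and 6.26 in untreated cells. There the VPA arrays lay inside the range of the untreated ones, and the difference was 0.044 ± 0.13. Neither probe set separated the groups. Where each of them maps in the genome was not checked.

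Cdipt is the phosphatidylinositol synthase, which joins inositol to CDP-diacylglycerol and so makes the lipid from which all phosphoinositides derive. Its probe set 10557560 read 8.05 and 8.02 in VPA cells, against 7.73 and 7.67 in untreated cells. The groups were set apart by 0.29, while replicates differed by 0.033 in VPA cells and 0.057 in untreated cells, so among the measured members Cdipt had the widest gap between groups and the closest replicates in VPA cells. The group means were 8.04 ± 0.023 in VPA cells and 7.70 ± 0.040 in untreated cells (SD, n = 2 each). The difference was 0.34 ± 0.11 (SE), with a 95% interval from 0.067 to 0.61. Its unadjusted p was 0.024 and its adjusted p 0.504 in limma. With any single array left out the difference stayed between 0.31 and 0.37. The unadjusted p in limma was 0.049 without untreated replicate 1, 0.076 without untreated replicate 2, 0.10 without VPA replicate 1 and 0.080 without VPA replicate 2.

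Slc5a3 encodes the sodium/myo-inositol cotransporter that brings inositol into the cell, and its transcription is known to be raised by the tonicity-responsive factor Nfat5. Its probe set 10436945 read 4.90 and 5.22 in VPA cells, against 4.73 and 4.66 in untreated cells. The groups did not overlap, but the VPA arrays were 0.32 apart, more than the 0.17 between the lower of them and the higher untreated array. The group means were 5.06 ± 0.22 in VPA cells and 4.70 ± 0.050 in untreated cells (SD, n = 2 each). The difference was 0.37 ± 0.15 (SE), with a 95% interval from -0.0095 to 0.75, an unadjusted p of 0.054 and an adjusted p of 0.545 in limma. It rested in part on VPA replicate 2, without which it was 0.21, while it was 0.53 without VPA replicate 1.

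**Figure D1:**
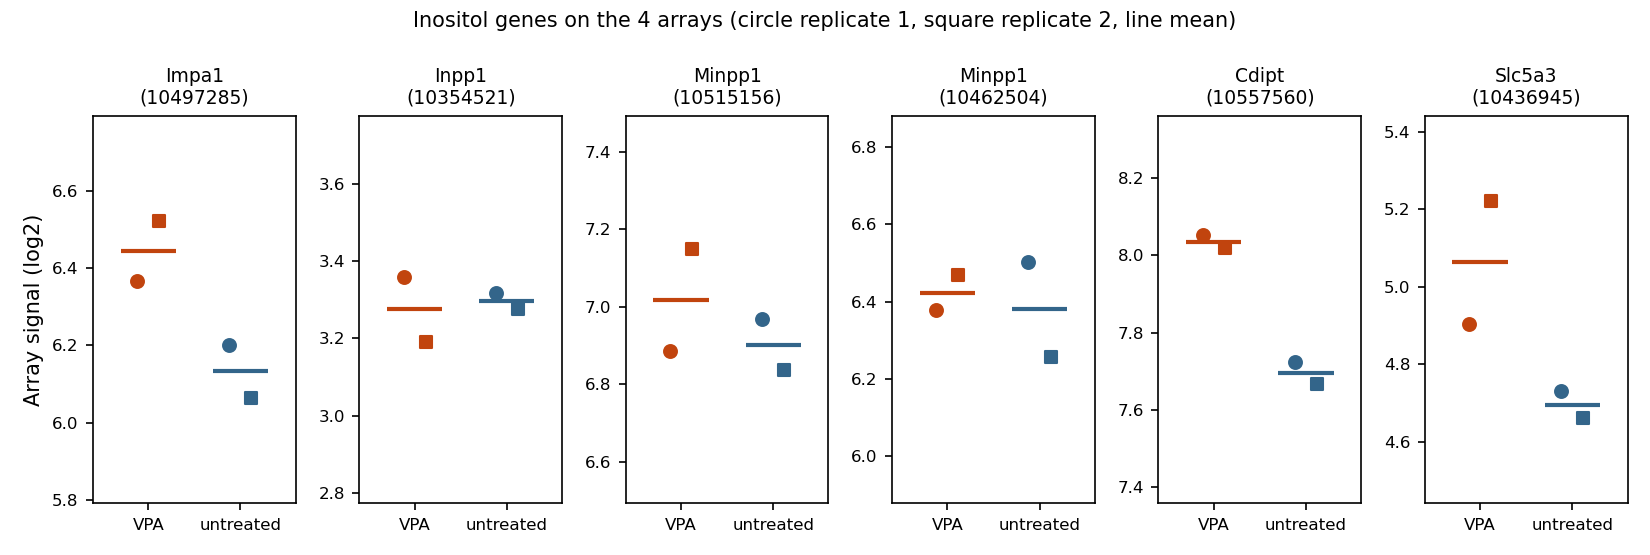
Signal (log2) of the 6 probe sets of the inositol genes on each array, VPA left and untreated right in each panel; circles are replicate 1, squares replicate 2 and lines group means, and every panel spans the same log2 range. The VPA points lie above the untreated points for Impa1, Cdipt and Slc5a3, and the groups overlap for Inpp1 and both probe sets of Minpp1.

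Slc5a3 shares its promoter region with Mrps6, which encodes a mitochondrial ribosomal protein: in the RefSeq table of GRCm38.p6 the starts of these genes lie 14 bases apart on the same strand, and their promoter windows have 286 of 300 bases in common. The table held a promoter for 3 of the 5 measured members (Inpp1, Minpp1 and Slc5a3). The 250 bases before the Slc5a3 start, chr16:92058072-92058321 on the plus strand, are shown because Slc5a3 and Mrps6 both begin there and both were measured. Capitals mark the GC box, GGGCGG or its reverse complement CCGCCC, a sequence bound by Sp1-type factors.
Slc5a3 promoter: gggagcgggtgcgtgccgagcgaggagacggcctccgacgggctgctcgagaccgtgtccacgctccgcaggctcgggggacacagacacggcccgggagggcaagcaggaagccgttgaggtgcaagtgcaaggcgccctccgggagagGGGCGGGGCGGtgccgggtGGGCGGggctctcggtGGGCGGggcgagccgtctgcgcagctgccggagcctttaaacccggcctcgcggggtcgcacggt
This stretch held 4 matches to the GC box, of which the leftmost pair overlap each other, and 32.7% of 32851 mouse promoter windows of this length held at least 1. The 250 bases before the Inpp1 start held 2 matches and those before the Minpp1 start 0. The letters TGGAAA, the core of the element that Nfat5 recognises, and their reverse complement TTTCCA were not in the Slc5a3, Inpp1 or Minpp1 stretch, and 18.6% of windows held them on either strand. Elements outside these windows were not searched.

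Mrps6 (probe set 10436941) read 7.39 and 7.24 in VPA cells, against 7.29 and 7.34 in untreated cells. Its VPA arrays lay on either side of the untreated ones, with a difference of -0.0007 ± 0.11 (SE) that was -0.075 after a second quantile normalization. Within each array, Slc5a3 minus Mrps6 was -2.48 and -2.02 in VPA cells, against -2.56 and -2.68 in untreated cells. The difference of these log2 ratios was 0.37, with an exact two-sided permutation p of 0.33, the smallest that 2 arrays against 2 can give.

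**Figure D2:**
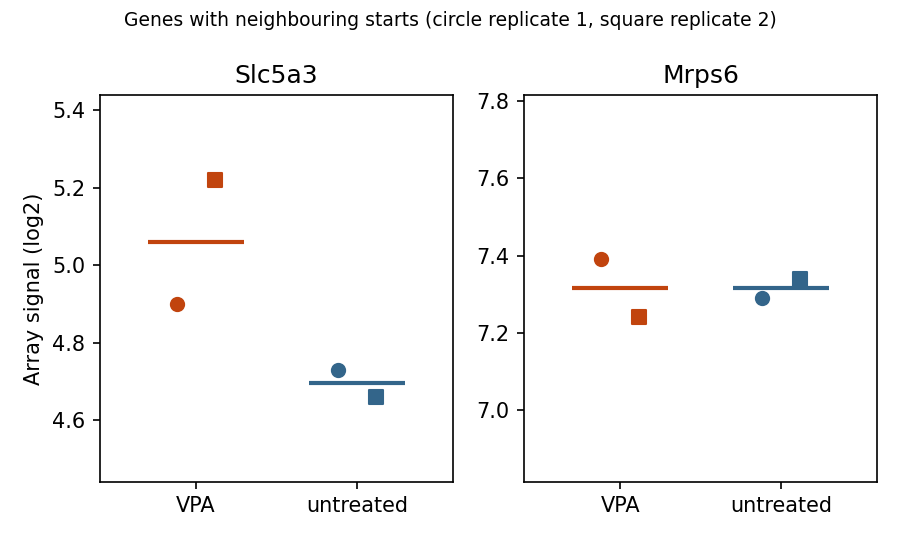
Signal (log2) of Slc5a3 and of Mrps6, whose starts lie 14 bases apart, with VPA left and untreated right; circles are replicate 1, squares replicate 2 and lines group means. The Slc5a3 groups do not overlap, and the Mrps6 groups do.

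The genes nearest to Slc5a3 in pattern were Plscr3, a phospholipid scramblase family member, Daam1, a formin that organises actin, and Fan1, a nuclease of DNA crosslink repair. They were taken from 4526 genes whose mean signal lay within 1 log2 unit of Slc5a3, by the root mean square distance between values centred on each gene over the 4 arrays. That distance was 0.031 for Plscr3, 0.035 for Daam1 and 0.037 for Fan1. Plscr3 read 4.90 and 5.17 in VPA cells, against 4.70 and 4.69 in untreated cells. Over 4 arrays many genes can come this close.

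Across the measured members, 3 of 5 had VPA values wholly above the untreated ones and 0 had them wholly below. Over all probe sets 21.7% were separated in the upward direction and 18.7% in the downward direction. At an unadjusted p under 0.05, 1 of 5 members (Cdipt) was higher and 0 lower, against 5.76% higher and 3.43% lower over all probe sets. The median difference of the 5 was 0.31, against 0.0078 over all probe sets. Brighter genes leaned upward on these arrays: among 11290 represented genes at or above the median signal, the median difference was 0.056, 32.2% were separated upward and 16.4% downward. All members except Inpp1 belong to that brighter part. After a second quantile normalization the median of the members was 0.23 and that of the brighter genes 0.011.

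**Figure D3:**
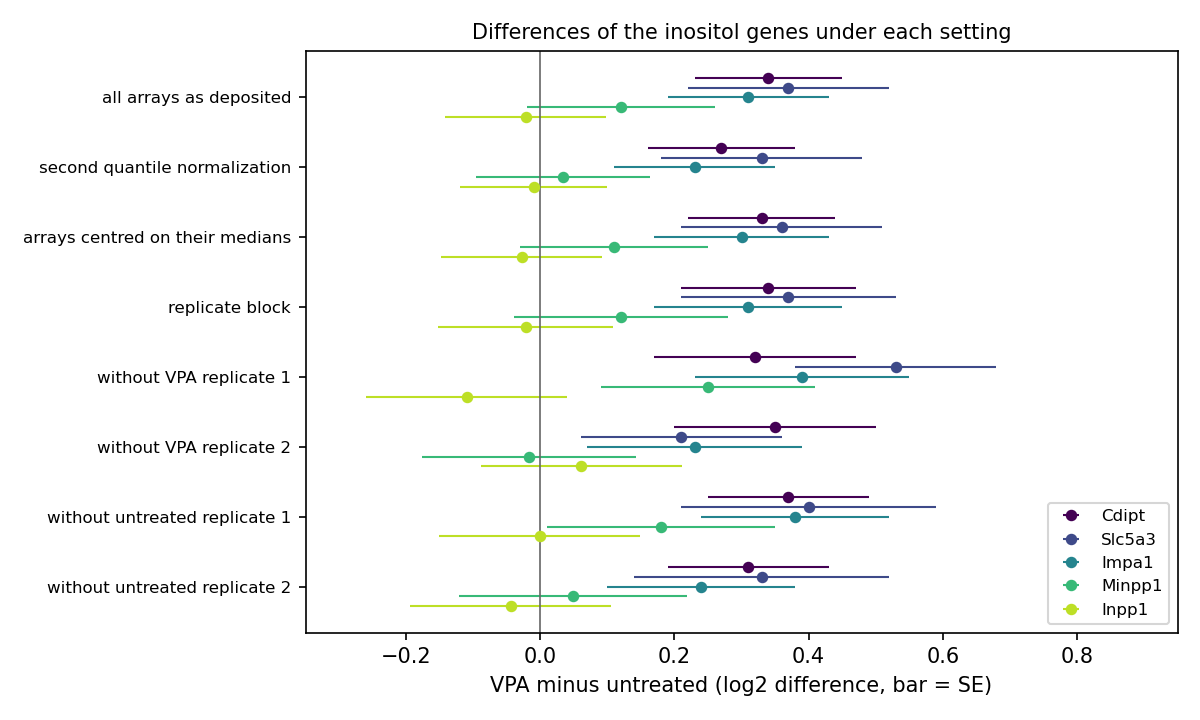
Difference between VPA and untreated cells (log2, bars are SE) for the 5 inositol genes, with all arrays as deposited at the top. Below are a second quantile normalization, median centring, a replicate block and omission of each array, and the other alternatives are not drawn. Cdipt, Slc5a3 and Impa1 stay above 0 in every setting drawn, whereas Minpp1 crosses 0 without VPA replicate 2 and Inpp1 lies near 0. The block leaves each difference as it was. For genes whose groups do not overlap, omission of an array cannot turn the sign.

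Genes that act around the members came from 8 lists of inositol, phosphoinositide and related genes, some of neither kind, such as Mrps6, Slc6a6 and Gsk3b. Of their 117 names 110 were measured. Of these genes, 82 had a higher and 28 a lower mean in VPA cells, 55 (50%) were separated upward and 9 downward, and 0 passed the test across all probe sets in limma. Among all probe sets 51.7% had a higher mean, and among the brighter represented genes 60.9% had a higher mean, 32.2% were separated upward and 16.4% downward. At an unadjusted p under 0.05, 19 of them (17.3%) were higher and 0 lower, while 9.58% of the brighter represented genes were higher and 3.37% lower. As many as 92 of the 110 belong to that brighter part. The count of 19 depended on the arrays: it was 9 without untreated replicate 2, 10 without VPA replicate 1 and 5 without VPA replicate 2, and 11 higher and 2 lower after a second quantile normalization.

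Among the other genes of inositol transport and osmolyte balance, Nfat5 and Slc6a6 were separated upward, Slc2a13 was separated downward and the groups of the other 4 measured genes overlapped. These counts are near the shares over all probe sets, of which 21.7% were separated upward and 18.7% downward. Nfat5, the regulator of Slc5a3 named above, read 6.20 and 6.26 in VPA cells, against 5.84 and 5.97 in untreated cells. The difference was 0.33 ± 0.11 (SE; unadjusted p = 0.035, adjusted p = 0.520 in limma). Slc6a6, the taurine transporter, differed by 0.16 ± 0.10. Slc6a12, of the same list and named after its values were seen, differed by -0.0063 ± 0.16. Its groups overlapped at a signal below the array medians. Slc2a13, the proton-coupled inositol transporter, differed by -0.17 ± 0.13 at a signal below the array medians. The second sodium-coupled inositol transporter, Slc5a11, differed by -0.065 ± 0.16, and Miox, the oxygenase that starts inositol breakdown, by -0.0030 ± 0.10, a sign that turned after a second quantile normalization. Of the 7 measured genes of this list, 1 was higher and 0 lower at an unadjusted p under 0.05, with a median of -0.0030 that was 0.0018 after a second quantile normalization. The count of 1 is Nfat5, and it was 0 after that normalization and without untreated replicate 1, VPA replicate 1 or VPA replicate 2. Over all probe sets 5.76% were higher at that p. Akr1b3 was not analysed here.

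Relatives of Impa1 and Inpp1 in the family of lithium-sensitive, magnesium-dependent phosphatases were measured for 4 genes. Bpnt1, which hydrolyses the adenosine bisphosphate left by sulfation reactions, read 8.57 and 8.56 in VPA cells, against 8.27 and 7.98 in untreated cells. The groups were separated, and the difference was 0.44 ± 0.14 (SE; unadjusted p = 0.025, adjusted p = 0.504 in limma). Bpnt2, its Golgi counterpart, differed by 0.33 ± 0.21 with overlapping groups, because untreated replicate 2 read 7.52 and untreated replicate 1 read 8.10. Fbp1, a gluconeogenic enzyme of low signal here, differed by 0.19 ± 0.11. Among the brighter genes 60.9% had a higher mean in VPA cells, and 9.58% were higher at an unadjusted p under 0.05 in limma. All 4 relatives had a higher mean, with a median of 0.28. Only Bpnt1 was higher at an unadjusted p under 0.05, and the count of 1 was 0 without untreated replicate 2, VPA replicate 1 or VPA replicate 2 and 2 without untreated replicate 1.

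Of the genes that supply or use the lipid product of Cdipt, 24 of 26 had a higher mean in VPA cells, 19 were separated upward and 1 downward, beside 60.9% with a higher mean and 32.2% separated upward among the brighter genes. At an unadjusted p under 0.05, 7 were higher and 0 lower, where 9.58% of the brighter genes were higher, and 0 passed the adjusted test in limma. The count of 7 was 4 without untreated replicate 2 and 3 without either VPA array. The median difference was 0.25, and 0.18 after a second quantile normalization. Pip4k2a, a kinase that makes phosphatidylinositol 4,5-bisphosphate from the 5-phosphate, read 6.32 and 6.27 in VPA cells, against 5.75 and 5.81 in untreated cells. It had the smallest unadjusted p of the list, with a difference of 0.52 ± 0.11 (SE; adjusted p = 0.472 in limma). Pik3r3, a regulatory subunit of phosphoinositide 3-kinase, read 4.88 and 4.85 in VPA cells, against 4.07 and 4.38 in untreated cells, a difference of 0.64 ± 0.14. Cds2, which makes the CDP-diacylglycerol that Cdipt consumes and was singled out after its values were seen, differed by 0.35 ± 0.12.

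Of 22 measured phosphatases that act on inositol phosphates and phosphoinositides, 17 had a higher mean in VPA cells, 13 were separated upward and 1 downward, beside the same 60.9% and 32.2% among the brighter genes. At an unadjusted p under 0.05, 7 were higher and 0 lower, where 9.58% of the brighter genes were higher, and none passed the adjusted test in limma. The count of 7 was 3 higher and 1 lower after a second quantile normalization, 2 higher without untreated replicate 2, 4 without VPA replicate 1 and 1 without VPA replicate 2. Synj1, a phosphoinositide phosphatase of synaptic and endocytic membranes, read 6.48 and 6.59 in VPA cells, against 5.87 and 6.06 in untreated cells, a difference of 0.57 ± 0.12 (SE). Mtmr6, a myotubularin-family phosphatase of endosomal 3-phosphoinositides, read 6.14 and 6.39 in VPA cells, against 5.84 and 5.43 in untreated cells, a difference of 0.63 ± 0.18.

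The kinases of soluble inositol phosphates and the genes of phospholipase C signalling showed small differences in both directions. Of 11 inositol phosphate kinases, 6 had a higher and 5 a lower mean, and 0 were separated upward and 3 downward. Among the brighter genes 32.2% were separated upward and 16.4% downward. The median of these kinases was 0.015, which became -0.051 after a second quantile normalization. Itpk1, which phosphorylates inositol trisphosphates and tetrakisphosphates, read 7.85 and 7.92 in VPA cells, against 7.99 in both untreated arrays, a difference of -0.11 ± 0.11 (SE). Itpkb, an inositol trisphosphate 3-kinase, differed by -0.21 ± 0.13 at a signal below the array medians. Of 15 phospholipase C and inositol trisphosphate receptor genes, 9 had a higher and 6 a lower mean, 5 were separated upward and 0 downward, beside 32.2% of the brighter genes upward, with a median of 0.063 that was 0.0003 after a second quantile normalization and 0.016 without untreated replicate 1. Plcb3, which G proteins activate, differed by 0.14 ± 0.10 and the sperm isoform Plcz1 by 0.25 ± 0.13, at a very low signal for Plcz1. In both lists 0 genes were higher or lower at an unadjusted p under 0.05 in limma, and without VPA replicate 1 the phospholipase C list had 1 higher and 1 lower.

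Enzymes near glucose 6-phosphate, the starting point of inositol synthesis, and the kinases Gsk3a and Gsk3b, which lithium inhibits, went both ways. Gsk3b read 7.11 and 7.07 in VPA cells, against 6.77 and 6.85 in untreated cells, a difference of 0.28 ± 0.11 (SE). Hexokinase Hk1 differed by -0.21 ± 0.13 on its brighter probe set and by 0.16 on the other, so its probe sets disagreed. Whether both lie at the Hk1 locus was not checked. Of the 5 measured genes of this list, 1 was higher and 0 lower at an unadjusted p under 0.05, beside 5.76% higher over all probe sets. The count of 1 is Gsk3b, and 0 were higher after a second quantile normalization or with any single array left out, with 1 lower without untreated replicate 1.

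**Figure D4:**
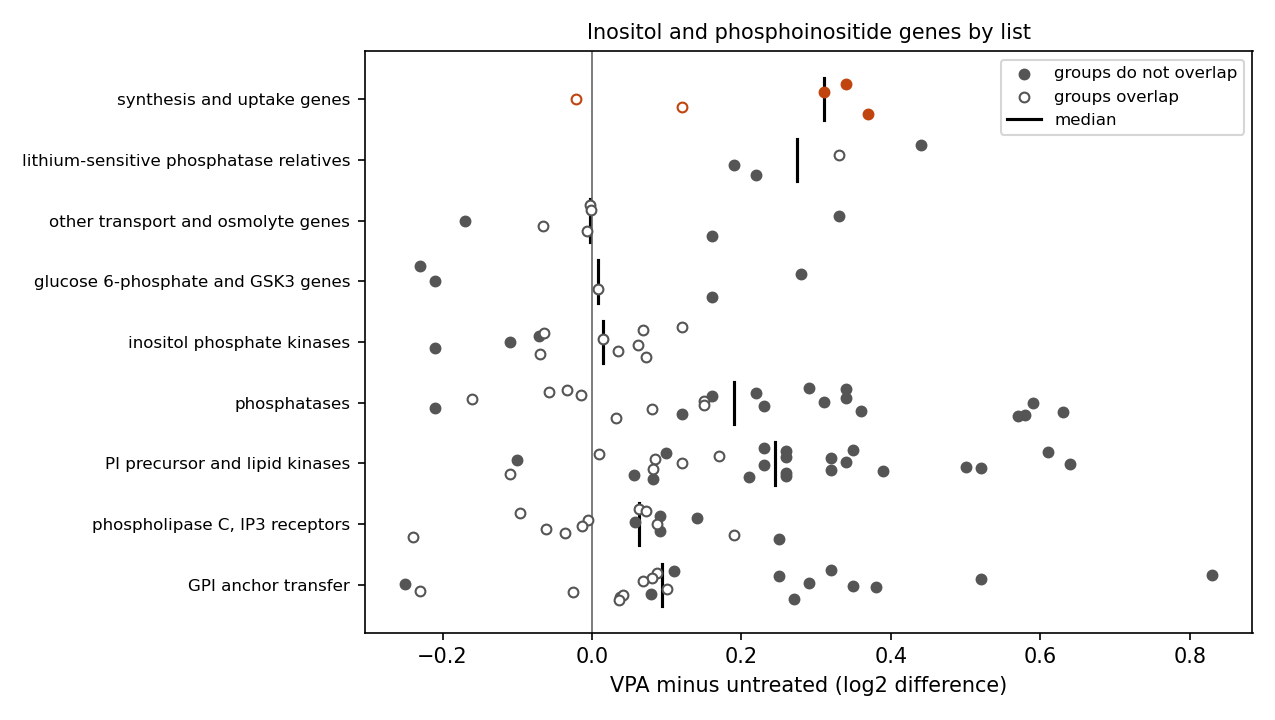
Difference between VPA and untreated cells (log2) of each measured gene, 1 row per list; filled points are genes whose groups do not overlap, open points genes whose groups do, and vertical bars are list medians. The medians of the lipid kinase list (0.25) and the phosphatase list (0.19) lie right of 0, and that of the inositol phosphate kinases (0.015) lies near it.

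The arrays carried the markers of embryonic stem cells: all 10 listed markers had mean signals between 8.58 and 12.58. Their summed linear signal was 18295 and 18693 in VPA cells, against 19882 and 18044 in untreated cells. Dppa5a and Tdgf1 weighed most in this sum, with group means of 12.63 and 11.93 in VPA cells, against 12.52 and 11.81 in untreated cells. Both had a higher mean in VPA cells, unlike 7 of the 10 markers, so the sum does not follow most of them. Among the brighter represented genes 16.4% were separated downward, and 3.37% were lower at an unadjusted p under 0.05 in limma. Of the 10 markers, 7 had a lower mean in VPA cells, 6 were separated downward and 1 upward, with a median difference of -0.16. In limma 3 were lower at an unadjusted p under 0.05 (Nanog by -0.48, Sall4 by -0.43 and Utf1 by -0.33) and 0 higher, and 1 was lower with any single array left out. Of 16 fibroblast feeder markers 15 were measured, with mean signals from 2.28 (Lum) to 9.01 (Sparc). Their summed linear signal was 883 and 835 in VPA cells, against 941 and 1014 in untreated cells. Sparc weighed most in this sum, with group means of 8.88 in VPA cells and 9.14 in untreated cells. Of the 15, 11 had a lower mean in VPA cells and 4 a higher one, among them Thy1 (0.31). Over all probe sets 51.7% had a higher mean. Of 12 markers of differentiated cells, 7 had a lower mean in VPA cells, and their mean signals reached at most 6.62. At an unadjusted p under 0.05 in limma 3 of them were lower, beside 3.43% of all probe sets. In such bulk samples fewer cells of a type and less RNA per cell cannot be told apart. The part of these marker differences in the differences of the inositol genes was not tested. Over all probe sets, the difference between a pair of arrays had an SD of 0.285 within VPA cells, 0.311 within untreated cells and from 0.297 to 0.360 across the groups, with untreated replicate 2 in the 2 widest of the 4 pairs across the groups.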

How the data were processed

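Total RNA of 4 samples was hybridised to Affymetrix arrays. The deposited table gives a log2 signal for each probe set on each array. The submitters' processing notes name RMA and Affymetrix Expression Console 1.1. RMA brings arrays to a common distribution, so small differences can depend on the normalization. The sources used here do not say which arrays it took together. For arrays their number limits the precision.

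Groups came from the titles. The log2 values were fitted by limma 3.58.1 (lmFit, then eBayes; R 4.3.3) over all 35556 probe sets, with treatment as the only term, two-sided, with Benjamini-Hochberg adjustment and a threshold of 0.05. The fit had 2 residual and 2.93 prior degrees of freedom. Groups were called separated when all VPA values lay on the same side of all untreated ones. Symbols came from the platform annotation, in which 21789 probe sets had 1 symbol, 1621 several and 12146 none. By gene identifier 21698 matched the RefSeq table, and 0 symbols differed. Promoter sequences are from RefSeq, GRCm38.p6. No build is given for the array.

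The named genes were all members, 2 genes of smallest unadjusted p per list, 9 fixed names of transport and phosphatase genes, and 3 of most like pattern for Slc5a3. The same was planned for Isyna1, which was not analysed here. The members and lists were chosen with earlier results of these data known. Alternatives were a second quantile normalization, median centring, omission of dim probe sets, trend and robust moderation, a replicate block, omission of each array and other probe sets. The fit was tested on simulated data.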

Additional observations from a re-analysis of the deposited data

How the results depend on the processing

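With each alternative, limma called 0 probe sets, with smallest adjusted p between 0.321 and 0.930. Cdipt, Slc5a3 and Impa1 kept their direction in all 10 alternatives run for each, with differences from 0.27 to 0.37, from 0.21 to 0.53 and from 0.23 to 0.39. Most of these alternatives could not have turned it. Their groups do not overlap, so omission of a single array cannot change the sign. Omission of dim probe sets, trend and robust moderation and the replicate block left the difference as it was. Only the second quantile normalization and median centring could have reversed it. Without VPA replicate 2 the sign turned for Inpp1 (0.061) and Minpp1 (-0.017), and the cause was not tested. With an array left out Inpp1 ran from -0.11 to 0.061 and Minpp1 from -0.017 to 0.25. Inpp1 has no value with dim probe sets left out. With an array left out, Cdipt was not always the inositol gene higher at an unadjusted p under 0.05, and at times none was. The count of inositol genes higher at that p was 0 after a second quantile normalization and 0 with the replicate block. That of the wider lists was 11 higher and 2 lower after the second normalization and 10 higher with the block. With an array left out it ran from 5 to 21 higher and from 0 to 2 lower. Fewer samples or a term more can widen the errors of these fits, but the count of the wider lists did not fall in each of them. Where an arm kept 1 array, that array is assumed to vary like the other group. Over all probe sets the second normalization changed 2049 higher and 1220 lower at an unadjusted p under 0.05 to 1670 and 1542.

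Arrays of the same replicate number share only that number, and their deviations from the group means correlated at -0.0966 over probe sets. With the replicate block the unadjusted p of Cdipt was 0.054, that of Slc5a3 0.080 and that of Impa1 0.098.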

Other observations

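Phosphatidylinositol is also the lipid on which glycosylphosphatidylinositol anchors are built, and genes of anchor assembly and transfer were measured for 20 of 21 names. Of these, 17 had a higher mean in VPA cells, 11 were separated upward and 1 downward, beside 60.9% with a higher mean and 32.2% separated upward among the brighter genes. The median difference was 0.095, and 0.042 after a second quantile normalization. At an unadjusted p under 0.05 in limma, 2 were higher and 0 lower, where 9.58% of the brighter genes were higher, and 0 passed the adjusted test. That count was 4 higher without untreated replicate 1, 2 higher and 1 lower without VPA replicate 1 and 1 higher without VPA replicate 2. Piga, the catalytic subunit of the enzyme that starts anchor synthesis on phosphatidylinositol, read 7.60 and 7.37 in VPA cells, against 6.86 and 6.43 in untreated cells. Its groups did not overlap, and the difference was 0.83 ± 0.19 (SE; adjusted p = 0.472 in limma). Pigf, which takes part in adding ethanolamine phosphate, read 7.97 and 8.36 in VPA cells, against 7.74 and 7.55 in untreated cells, a difference of 0.52 ± 0.17. After a second quantile normalization 2 genes of the list were higher and 1 lower at that p.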
